A study of Mus musculus with 6 samples.

Results

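The classical cadherins and catenins described here are 10 genes, taken by symbol from the 24982 genes listed for each library. They are *Cdh1* (E-cadherin), *Cdh3* (P-cadherin), *Cdh2* (N-cadherin), *Cdh11* (OB-cadherin), *Cdh13* (T-cadherin), *Ctnnb1* (beta-catenin), *Ctnnd1* (p120-catenin), *Arvcf*, *Ctnna1* (alpha-E-catenin) and *Vcl* (vinculin). The name does not suit every gene. *Cdh11* encodes a type II cadherin, *Cdh13* encodes an atypical cadherin that is held in the membrane by a lipid anchor and has no catenin-binding tail, and *Vcl* encodes an actin-binding protein that docks on alpha-catenin and is not itself a catenin. All 10 symbols were found. The rule itself uses no measured value, though the genes were chosen with earlier results of these data known.

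RNA-seq was carried out on 6 libraries of C57BL/6 mouse keratinocytes from neonatal skin, with no other treatment. Of these, 3 libraries came from cells derived and kept in the low calcium medium KSFM-Ca2+, and 3 came from DKSFM cells, which descend from the KSFM-Ca2+ cells and were adapted to growth in the medium DKSFM. The medium, its calcium, the adaptation and the time in culture differ together between the lines and cannot be told apart. The labels do not say whether replicates were separate cultures, so the p-values measure the spread between these libraries, which may be technical.

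In adherens junctions, classical cadherins of neighbouring cells bind each other in a calcium-dependent way. Inside the cell, beta-catenin binds the end of the cadherin tail and recruits alpha-catenin, which couples the complex to actin and to vinculin, while p120-catenin and its relatives bind the part of the tail next to the membrane and keep the cadherin at the surface. In the epidermis E-cadherin is found in all living layers, P-cadherin mainly in the basal layer, and raising extracellular calcium is the classical way to make cultured keratinocytes assemble these junctions.

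The files hold the mean read coverage per base of each gene, which is a level per length, so that levels of different genes can be set side by side. The coverage of all genes added up to 1601676, 1238411 and 1057750 in KSFM-Ca2+ replicates 1 to 3, and 1174348, 1239438 and 1170675 in DKSFM replicates 1 to 3. Read counts were not used, so the depth per gene is unknown, and the rounding of the listed values to 0.1 limits what can be said of low genes. Values below are coverage normalized between libraries. The fold changes are DKSFM over KSFM-Ca2+ on the scale of log2(normalized coverage + 0.1), which understates the change of low genes, and they come from limma with Benjamini-Hochberg adjustment over the 12409 genes that reached a normalized coverage of 0.5 in at least 3 libraries. A gene was called changed when its adjusted p was under 0.01.

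Both lines carried the marks of keratinocytes. All 7 keratinocyte markers were present in every library. Their summed normalized coverage was 19322, 19773 and 19393 in the KSFM-Ca2+ libraries and 45122, 41246 and 45645 in the DKSFM libraries. Most of it was *Krt14*, the most abundant (11992 ± 242 and 29678 ± 1520), and *Krt5* (4691 ± 26 and 11132 ± 789), so the sum says little of the others. *Itgb4* fell from 321 ± 6.3 to 192 ± 8.6 (adjusted p = 4.16e-07, limma). In the DKSFM cells 5 of the 7 were called higher, 1 lower and 1 not called, where 35.3% of all tested genes were called higher and 37.3% lower. The 5 were 3 with library totals, without the intensity trend, with the replicate block, in the combined libraries, and without KSFM-Ca2+ replicate 2 or 3 or DKSFM replicate 1 or 3. Of the 7 fibroblast markers, 6 were listed at 0 in every library, among them *Col1a1*, *Dcn* and *Pdgfrb*, and the endothelial markers *Cdh5* and *Emcn*, the melanocyte markers *Dct* and *Tyr* and the Merkel cell marker *Atoh1* were listed at 0 as well. All 5 immune markers stayed at or under 1 in each library. What remained of these lists came mostly from 1 gene each. The 7 melanocyte markers summed to 4.12, 3.97 and 4.61 in the KSFM-Ca2+ and 17.3, 18.8 and 18.3 in the DKSFM libraries, most of it *Mitf*. The 5 endothelial markers summed to 2.82, 3.17 and 3.31 and to 8.26, 8.28 and 7.42, mostly *Pecam1*, and the 4 Merkel cell markers to 5.57, 5.16 and 3.54 and to 8.68, 8.68 and 8.06, mostly *Sox2*. The fibroblast list rested on *Pdgfra* (1.11 ± 0.20 and 2.22 ± 0.12, mean ± SD, n = 3). Beyond the genes named, the markers of these lists stayed under 0.5 in each library except *Isl1* and *Pmel*, which overlapped between the lines, and whether those that moved have a part in the values below was not tested.

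Of the 10 genes, 8 passed the filter on low values, while *Cdh2* and *Cdh11* were too low to be tested. In the DKSFM cells 2 of the 8 were called higher, *Arvcf* and *Cdh13*, where 35.3% of all tested genes were called higher. A further 5 were called lower, *Ctnna1*, *Vcl*, *Ctnnd1*, *Ctnnb1* and *Cdh1*, where 37.3% of all tested genes were, and *Cdh3* was not called. Both genes called higher had a change of at least 2-fold, which 13.1% of tested genes had in that direction, and 0 of the 5 called lower did, where 10.6% of tested genes did. The libraries of the lines did not overlap for 7 of the 8, as they did not for 83.3% of all tested genes. Their median log2 fold change was -0.16, beside -0.01 over the whole set. The counts were therefore those of a comparison in which most genes moved, and the account below rests on the size of each change.

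**Figure D1:**
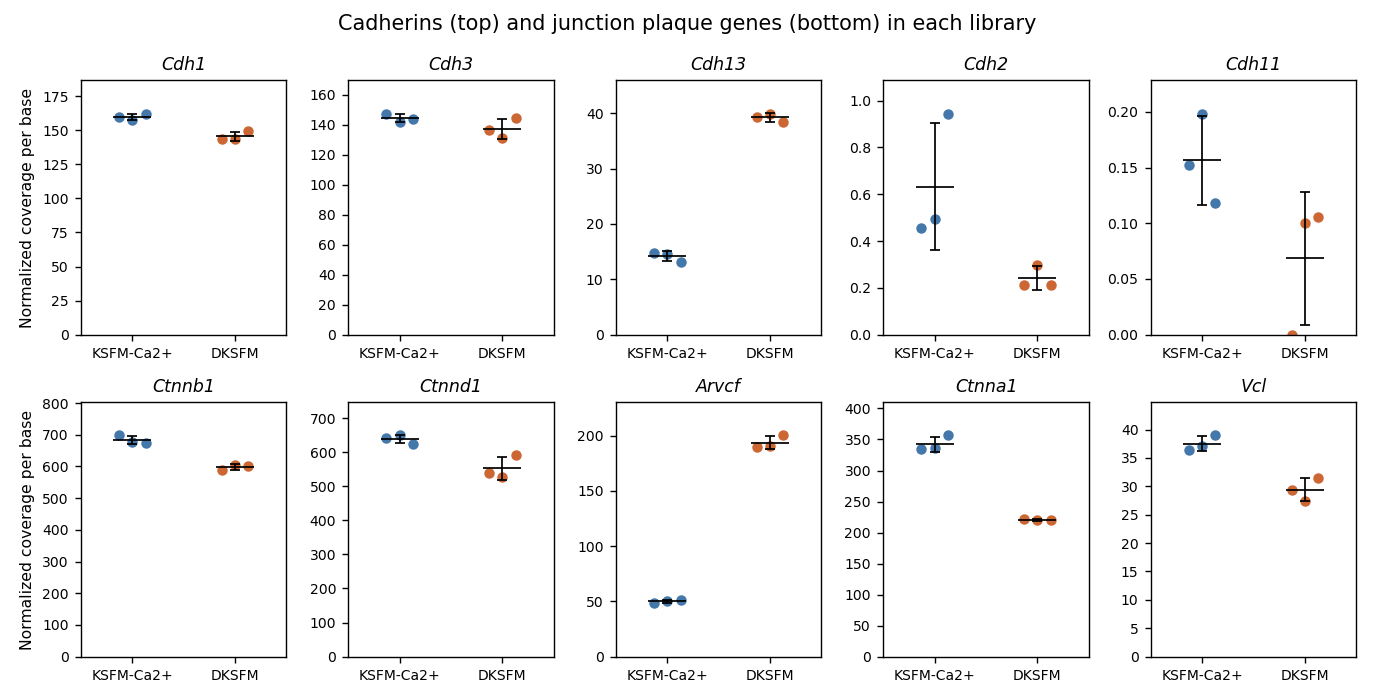
Normalized coverage per base (vertical axes, each from 0) of the 5 cadherins in the upper row and of *Ctnnb1*, *Ctnnd1*, *Arvcf*, *Ctnna1* and *Vcl* in the lower row, with 1 point per library and the mean ± SD of the 3 libraries of each line as black bars. *Cdh13* and *Arvcf* stand higher in all 3 DKSFM libraries, *Ctnna1* stands lower, and the *Cdh3* libraries of the lines overlap.

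E-cadherin was the most abundant cadherin in every library and changed little. *Cdh1* (chr8:106603350-106670247, GRCm38) had a normalized coverage of 160, 157 and 162 in the KSFM-Ca2+ and 143, 144 and 149 in the DKSFM libraries. Each DKSFM library lay below each KSFM-Ca2+ library, though the nearest were only a few percent apart. The log2 fold change was -0.13 ± 0.03 (SE), a change of -8.92% (95% confidence interval -13.1 to -4.49), with an adjusted p of 0.00299 in limma. This call did not hold throughout. Quantile normalization gave an adjusted p of 0.0272, a fit without the intensity trend 0.0127, and the 4 libraries marked as combined by the authors alone 0.0258. Leaving out KSFM-Ca2+ replicate 1 (0.0130) or 3 (0.0114), or DKSFM replicate 1 (0.0136) or 2 (0.0106), also took limma's adjusted p above 0.01. Over the 16 refits other than the test against a 2-fold change, the adjusted p ranged from 0.00181 to 0.0272 and the log2 fold change from -0.15 to -0.08. The paper reports increased E-cadherin expression in the DKSFM-adapted cells, measured for *Cdh1* by qPCR, which is the other direction. That qPCR was normalized to *Gapdh* and set against mouse embryonic stem cells, so the 2 measures are unlike. By protein staining the paper also reports that the DKSFM cells formed adherens junctions, which the coverage of *Cdh1* does not address. From RNA-seq it describes more transcripts of cell-cell adhesion genes as a group in these cells.

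P-cadherin was nearly as abundant as E-cadherin. *Cdh3*, which lies just beside *Cdh1* (chr8:106510852-106556911), stood at 147, 142 and 144 in the KSFM-Ca2+ and 137, 131 and 144 in the DKSFM libraries. DKSFM replicate 3 lay within the range of the KSFM-Ca2+ libraries, so the lines overlapped. The log2 fold change of -0.07 ± 0.04 was not called (adjusted p = 0.121, limma), with a 95% interval for the change of -11.0 to 1.34%. It was -0.04 without DKSFM replicate 2, -0.11 without DKSFM replicate 3 (adjusted p = 0.0259, limma) and -0.02 with quantile normalization, and was called in none. The ratio of *Cdh3* to *Cdh1* within a library was 0.904 ± 0.018 in the KSFM-Ca2+ and 0.943 ± 0.030 in the DKSFM libraries and overlapped between lines (p = 0.2 by a two-sided exact permutation test). The size of these cadherin changes was small beside the rest of the transcriptome, since only 15.5% of tested genes had a smaller absolute change than *Cdh1* and 8.37% a smaller one than *Cdh3*.

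T-cadherin was the cadherin that rose. *Cdh13* (chr8:118140017-119324929) had a normalized coverage of 14.7, 14.6 and 13.1 in the KSFM-Ca2+ and 39.4, 39.9 and 38.4 in the DKSFM libraries. All 3 DKSFM libraries were far above all 3 KSFM-Ca2+ libraries, with little spread within a line. The change was 2.77-fold (log2 fold change 1.47 ± 0.06, adjusted p = 9.14e-08, limma), larger in absolute size than that of 84.4% of tested genes. As a share of the summed coverage of the 5 cadherins, *Cdh13* went from 4.43 ± 0.30% to 12.2 ± 0.58%. T-cadherin, which is known as a receptor for adiponectin and LDL, was thus the next cadherin in level after *Cdh1* and *Cdh3* in both lines, and it was well below them.

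The mesenchymal cadherins were close to the limit of the listing. *Cdh2* was listed, before normalization, at 0.6, 0.5 and 0.8 in the KSFM-Ca2+ and 0.2, 0.3 and 0.2 in the DKSFM libraries. The lines did not overlap, but the values were within a few rounding steps of 0 and KSFM-Ca2+ replicate 3 stood apart from the other libraries of its line after normalization (0.457, 0.496 and 0.945). *Cdh11* was listed at 0.2, 0.2 and 0.1 and at 0, 0.1 and 0.1, which is at the rounding step. With no filter on low values, limma gave an adjusted p of 0.0136 for *Cdh2* and 0.134 for *Cdh11*. *Cdh2* passed the filter in 3 other settings: quantile normalization, where the adjusted p was 0.00278, and the fits without DKSFM replicate 1 (0.0393) or 3 (0.0366). The highest normalized value of *Cdh2*, 0.945, compares with a lowest value of 143 for *Cdh1*. Of the 18 other numbered cadherins 13 were listed at 0 in every library, and *Cdh24* alone was tested (1.23 ± 0.33 and 1.04 ± 0.13, adjusted p = 0.423, limma, with the opposite direction in the combined libraries, adjusted p = 0.743).

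Set against *Cdh1* and *Cdh3* together, the sum of *Cdh2*, *Cdh11* and *Cdh13* was 0.0499, 0.0511 and 0.0463 in the KSFM-Ca2+ libraries and 0.141, 0.147 and 0.132 in the DKSFM libraries. The ratio was higher in all 3 DKSFM libraries and nearly all of it was *Cdh13*. The exact two-sided permutation test gave p = 0.1, the smallest value that 3 libraries against 3 allow, and 0.14 after adjustment over the 7 ratios examined.

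Beta-catenin, the catenin that also acts as the transcriptional effector of Wnt signalling, had the highest mean of the 10 genes in both lines. *Ctnnb1* (chr9:120933400-120960507) stood at 698, 678 and 675 in the KSFM-Ca2+ and 589, 605 and 601 in the DKSFM libraries. The lines were apart and the libraries of a line close together. The log2 fold change was -0.19 ± 0.03, a change of -12.5% (interval -16.1 to -8.72), with an adjusted p of 0.000177 in limma. Quantile normalization gave a smaller log2 fold change of -0.12, outside this interval, with an adjusted p of 0.00478. Relative to the summed coverage of *Cdh1*, *Cdh2*, *Cdh3* and *Cdh11*, the cadherins with a catenin-binding tail, *Ctnnb1* was at 2.24 ± 0.039 in the KSFM-Ca2+ and 2.12 ± 0.080 in the DKSFM libraries, and this ratio overlapped between lines (p = 0.2, exact permutation test, two-sided).

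Alpha-E-catenin had the largest fall among the 8 tested genes. *Ctnna1* (chr18:35118902-35254776) was at 335, 336 and 356 in the KSFM-Ca2+ and 222, 220 and 220 in the DKSFM libraries. The DKSFM libraries were nearly identical, and all lay far below the KSFM-Ca2+ libraries. The log2 fold change was -0.64 ± 0.03, a change of -35.6% (interval -38.8 to -32.3), with an adjusted p of 3.66e-07 in limma. *Ctnnb1* changed less, and the ratio of *Ctnna1* to *Ctnnb1* went from 0.480, 0.496 and 0.528 in the KSFM-Ca2+ libraries to 0.377, 0.363 and 0.366 in the DKSFM libraries. The ratio did not overlap between lines (p = 0.1, the smallest possible, exact permutation test, two-sided; adjusted p = 0.14). A ratio of transcripts does not give the ratio of the proteins in the complex.

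Vinculin, which reinforces junctions under tension, was lower as well. *Vcl* (chr14:20929383-21033676) stood at 36.4, 37.2 and 39.0 in the KSFM-Ca2+ and 29.3, 27.4 and 31.5 in the DKSFM libraries. The lines did not overlap. The log2 fold change was -0.35 ± 0.06, a change of -21.6% (interval -28.5 to -14.0), with an adjusted p of 0.000570 in limma. The fall was smaller than that of *Ctnna1*, and the ratio of *Vcl* to *Ctnna1* was higher in the DKSFM libraries (0.133 ± 0.0094 against 0.109 ± 0.0010; p = 0.1, exact permutation test, two-sided). The last 571 bases of *Vcl* overlap the end of *Ap3m1*, which was also lower (log2 fold change -0.70, adjusted p = 1.30e-05, limma). The paper describes directional libraries that were aligned with a strand setting. How coverage was shared out between overlapping genes is not given in the sources used here, so the *Vcl* value is uncertain to that extent.

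The promoter window of *Vcl* holds the CArG box, the element recognised by serum response factor. The window runs from 250 bases before to 50 after a transcript start, is taken from RefSeq (GRCm38.p6), and is shown with that of *Actg1*, cytoplasmic gamma-actin (561 ± 28 in the KSFM-Ca2+ and 391 ± 23 in the DKSFM libraries, chosen after its value was seen), because both genes fell and both windows have a match. Capitals mark the CArG box.
Vcl, chr14:20929148-20929447, plus strand: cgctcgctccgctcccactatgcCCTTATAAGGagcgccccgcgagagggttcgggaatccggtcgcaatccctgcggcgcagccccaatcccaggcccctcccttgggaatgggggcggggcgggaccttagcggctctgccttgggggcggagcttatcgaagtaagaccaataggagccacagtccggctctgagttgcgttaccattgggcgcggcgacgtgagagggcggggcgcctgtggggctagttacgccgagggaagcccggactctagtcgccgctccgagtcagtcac
Actg1, chr11:120348446-120348745, minus strand: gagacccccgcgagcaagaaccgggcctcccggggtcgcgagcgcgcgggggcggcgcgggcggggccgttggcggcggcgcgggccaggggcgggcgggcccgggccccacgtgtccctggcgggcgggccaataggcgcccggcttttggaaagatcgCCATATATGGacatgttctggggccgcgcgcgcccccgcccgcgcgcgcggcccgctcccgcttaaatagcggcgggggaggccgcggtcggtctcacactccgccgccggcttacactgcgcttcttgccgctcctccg
The box starts 227 bases before the transcript start of the *Vcl* window, which lies 15 bases inside the gene as given above, and 90 bases before that of the *Actg1* window. The strict form of the element reads the same on both strands and was found in 1.63% of the 32851 promoter windows of this length. Of the 16 junctional actin partners described below, 13 had a window, and a match was found for 2 of them, *Actg1* and *Lima1*, while of all 16 genes 7 were called higher and 7 lower. *Lima1* was higher in the DKSFM cells (log2 fold change 0.14, a call lost without the intensity trend, at an adjusted p of 0.0108 in limma, and in the combined libraries, at 0.0223). *Rab11a* of the trafficking list (log2 fold change -0.60) has a match too. A match is a description of the letters, and the binding of a factor was not tested. Windows were found for 4 of the 10 genes, *Ctnnb1*, *Ctnnd1*, *Arvcf* and *Vcl*, and of their 8 windows that of *Vcl* alone had a CArG box.

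The p120-catenin family, whose products bind the same stretch of the cadherin tail, held the largest rise among the 10 genes next to a small fall. p120-catenin itself was slightly lower. *Ctnnd1* (chr2:84587096-84658977) stood at 641, 649 and 625 in the KSFM-Ca2+ and 538, 528 and 591 in the DKSFM libraries. The lines did not overlap, but DKSFM replicate 3 stood nearer to the KSFM-Ca2+ libraries than the other two did. The log2 fold change was -0.21 ± 0.04, a change of -13.6% (interval -19.5 to -7.23), with an adjusted p of 0.00232 in limma. As with *Cdh1*, the call was lost in several settings. The adjusted p was 0.0154 with quantile normalization, 0.0124 without the intensity trend and 0.0487 in the combined libraries alone. It was 0.0106 without KSFM-Ca2+ replicate 1, 0.0112 without KSFM-Ca2+ replicate 2, 0.0126 without DKSFM replicate 1 and 0.0112 without DKSFM replicate 2, in a range from 0.000246 to 0.0487 over the 16 refits. Per unit of *Cdh1*, *Cdh2*, *Cdh3* and *Cdh11*, *Ctnnd1* was at 2.09 ± 0.067 in the KSFM-Ca2+ and at 1.95 ± 0.053 in the DKSFM libraries (p = 0.1, exact permutation test, two-sided).

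Its relative *Arvcf*, named for the velocardiofacial syndrome region in which the human gene lies, rose more than the other 9 genes. *Arvcf* (chr16:18348182-18407076) had a normalized coverage of 48.6, 50.5 and 50.8 in the KSFM-Ca2+ and 190, 191 and 200.1 in the DKSFM libraries. The lines were far apart in every library. The change was 3.87-fold (log2 fold change 1.95 ± 0.03, adjusted p = 1.99e-09, limma), larger in absolute size than that of 89.4% of tested genes. The ratio of *Arvcf* to *Ctnnd1* went from 0.0758, 0.0777 and 0.0813 in the KSFM-Ca2+ libraries to 0.353, 0.362 and 0.338 in the DKSFM libraries. This was the largest difference among the 7 ratios, 4.49-fold (p = 0.1, the smallest possible, exact permutation test, two-sided; adjusted p = 0.14).

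Of the 6 other catenins, 3 passed the filter, of which 2 were called higher and 1 lower (35.3% and 37.3% over all tested genes), with a median log2 fold change of 0.64 against -0.01 for all tested genes. The first of them was *Pkp4* (plakophilin 4, also called p0071), which belongs to the same family as *Ctnnd1* and *Arvcf*. It stood at 215, 213 and 211 in the KSFM-Ca2+ and 723, 752 and 709 in the DKSFM libraries. That is a 3.41-fold rise (log2 fold change 1.77 ± 0.03, adjusted p = 1.47e-09, limma), with the lines far apart. *Jup*, plakoglobin, which can take the place of beta-catenin on the cadherin tail and also serves desmosomes, rose 1.56-fold from 192 ± 8.9 to 299 ± 17 (adjusted p = 5.18e-06, limma). *Ctnnal1*, a relative of alpha-catenin, fell by 25.1% (adjusted p = 0.000669, limma). *Ctnna2* and *Ctnnd2*, which are mainly neural, were listed at 0 in every library, and *Ctnna3* did not exceed the rounding step.

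Taking *Ctnnd1*, *Arvcf* and *Pkp4* as a sum, the family stood at 905, 913 and 886 in the KSFM-Ca2+ and 1452, 1471 and 1500.1 in the DKSFM libraries. Within it, *Ctnnd1* made up 70.8 ± 0.31% in the KSFM-Ca2+ and 37.5 ± 1.8% in the DKSFM libraries. The share of *Arvcf* was 5.54 ± 0.18% and 13.1 ± 0.18%, and that of *Pkp4* was 23.6 ± 0.23% and 49.4 ± 2.0%. The sum was thus higher in every DKSFM library although *Ctnnd1* was lower, and *Pkp4* rather than *Ctnnd1* was the most abundant of the 3 transcripts there. This sum was formed after the values were seen.

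**Figure D2:**
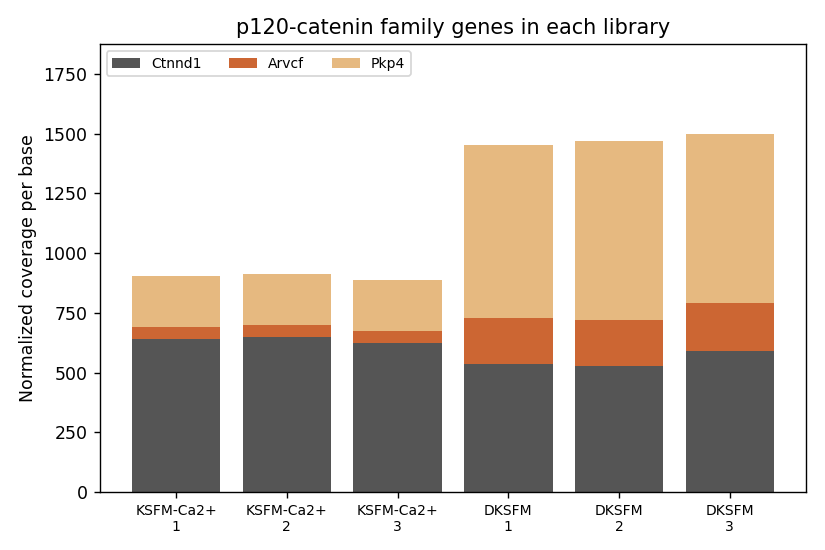
Normalized coverage per base (vertical axis, from 0) of *Ctnnd1*, *Arvcf* and *Pkp4* stacked in each of the 6 libraries (horizontal axis). The grey *Ctnnd1* part is somewhat smaller in the DKSFM libraries, while the *Arvcf* and *Pkp4* parts above it are larger, so that the stack reaches 1452 to 1500.1 against 886 to 913.

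*Arvcf* and *Pkp4*, the family members that rose, each have 1 promoter window with a match to the E-box CACCTG, searched on both strands, the core bound by the Snail and ZEB repressors of *Cdh1* described below. They are shown because these 2 genes carry the rise of the family, with the match in capitals. *Arvcf* has 3 windows and *Pkp4* 2, and the window with the match is given.
Arvcf, chr16:18347932-18348231, plus strand: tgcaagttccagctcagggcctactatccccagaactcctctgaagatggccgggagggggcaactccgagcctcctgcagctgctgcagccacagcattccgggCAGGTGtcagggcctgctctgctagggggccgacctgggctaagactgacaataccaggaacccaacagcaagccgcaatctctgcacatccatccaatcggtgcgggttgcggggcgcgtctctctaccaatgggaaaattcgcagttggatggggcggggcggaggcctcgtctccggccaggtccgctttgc
Pkp4, chr2:59161619-59161918, plus strand: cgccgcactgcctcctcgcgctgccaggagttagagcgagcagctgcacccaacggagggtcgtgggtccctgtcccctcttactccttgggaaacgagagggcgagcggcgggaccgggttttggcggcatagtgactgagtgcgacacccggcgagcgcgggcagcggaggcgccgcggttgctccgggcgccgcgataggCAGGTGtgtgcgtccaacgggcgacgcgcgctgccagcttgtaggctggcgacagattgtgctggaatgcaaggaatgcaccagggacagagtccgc
The match starts 145 bases before the transcript start of the *Arvcf* window and 47 bases before that of the *Pkp4* window, which is an internal start, 1019 bases inside the gene. The letters were found in 20.2% of the 32851 windows, so that such a match is common, and it did not go with 1 direction. This share is per window, and a match in any window is likelier for a gene with several windows, as these 2 have. Binding of a factor was not tested. *Ctnna2*, listed at 0 in every library, has one as well, as do *Myh10* (2 matches, log2 fold change -3.32) and *Shroom3* (-0.28, adjusted p above 0.01 in the combined libraries alone, at 0.0143 in limma), *Actn4* (0.38) and *Numb*, which was not called (0.06). Neither window of *Ctnnd1* had it, which says only that these letters are not in those windows.

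The order of levels differed a little between the lines. In the KSFM-Ca2+ cells it ran *Ctnnb1*, *Ctnnd1*, *Ctnna1*, *Cdh1*, *Cdh3*, *Arvcf*, *Vcl*, *Cdh13*, *Cdh2* and *Cdh11*, from a mean of 684 to 0.156, and the libraries of neighbours in this order did not overlap. In the DKSFM cells *Arvcf* stood above *Cdh1* and *Cdh3*, and *Cdh13* above *Vcl*. There the values of *Ctnnb1* and *Ctnnd1* overlapped between libraries, as did those of *Cdh1* and *Cdh3*, though within each library the first of each pair was the higher. Among the tested genes *Ctnnb1* was at the 97.7th percentile of coverage in the KSFM-Ca2+ and the 97.5th in the DKSFM cells, and *Arvcf* went from the 66.3rd to the 90.5th.

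**Figure D3:**
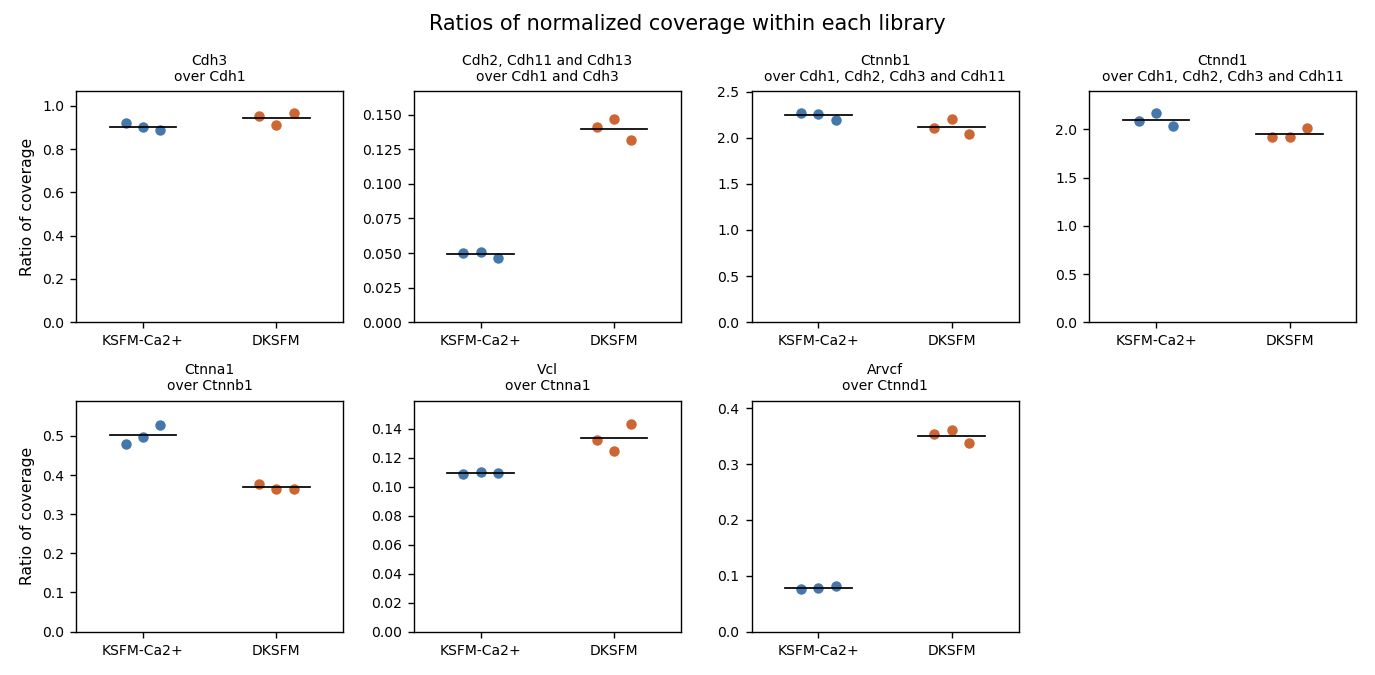
Ratios of normalized coverage within each library (vertical axes, each from 0) for the 7 pairs or sums examined, with 1 point per library and a bar at the mean of the 3 libraries of each line. *Arvcf* over *Ctnnd1* and the ratio that holds *Cdh13* are higher in all DKSFM libraries and *Ctnna1* over *Ctnnb1* is lower, while *Cdh3* over *Cdh1* and *Ctnnb1* over the tailed cadherins overlap.

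The 5 cadherins lie on chromosomes 8 and 18, and 4 of them, *Cdh1*, *Cdh3*, *Cdh11* and *Cdh13*, are on chromosome 8. Over its 663 tested genes other than these cadherins the median log2 fold change was -0.43, and it was not alone in this, since all tested genes of chromosome 1 also had a median of -0.43 and those of chromosome 18, which carries *Cdh2* and *Ctnna1*, one of -0.28. Within 10 Mb of *Cdh1* the median of 114 genes was -0.54, and 85.1% of them had a negative fold change. Around *Cdh13* the median of 145 genes was -0.57. The log2 fold changes of *Cdh1* (-0.13) and *Cdh3* (-0.07, not called) lay above the median of the genes around them by 0.41 and 0.47. That of *Cdh13* (1.47) lay above the median of its surroundings by 2.04. Whether the median of this chromosome has a part in the values of the cadherins was not tested.

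The other genes also differed from the median of their neighbours, which is given as a description with no test. Around *Arvcf* on chromosome 16 the median of 145 genes was 0.32, against 1.95 for *Arvcf* itself. *Ctnnb1* (-0.19) fell where the 71 genes within 10 Mb had a median of 0.32, and *Ctnnd1* (-0.21) where 78 genes had a median of 0.18. For *Ctnna1* (-0.64) the median of 127 neighbours was -0.19, and for *Vcl* (-0.35) that of 69 neighbours was -0.03. The medians around *Ctnnd1*, *Ctnnb1* and *Ctnna1* depended on the width of the window, and that of *Ctnnd1* was -0.32 within 5 Mb.

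**Figure D4:**
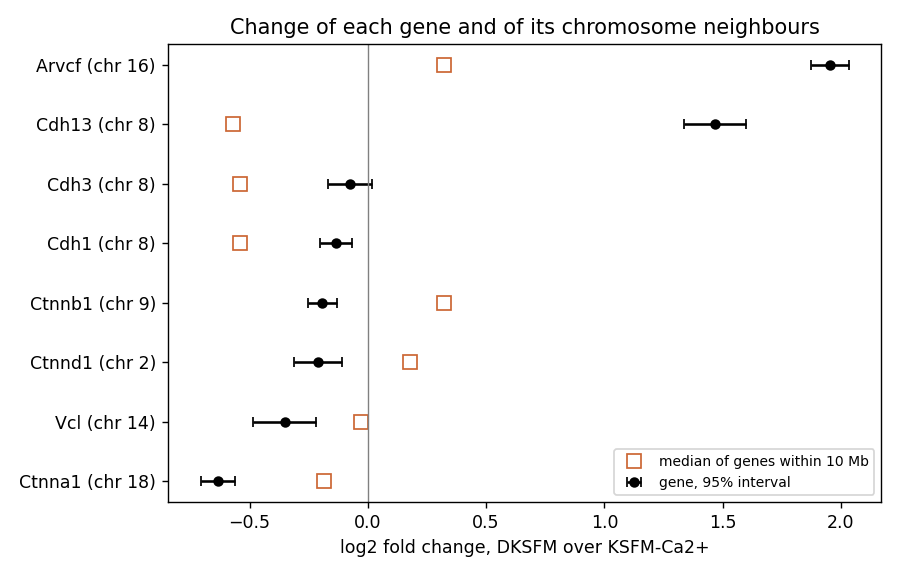
Log2 fold change, DKSFM over KSFM-Ca2+ (horizontal axis), of the 8 tested genes with its 95% confidence interval (black), and the median log2 fold change of the tested genes within 10 Mb of each (open squares). The squares of *Cdh1*, *Cdh3* and *Cdh13* on chromosome 8 lie between -0.57 and -0.54, to the left of the genes themselves.

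The cadherin-catenin complex works beside the nectins, immunoglobulin-like adhesion molecules that are linked to actin by afadin. All 6 genes of this list were tested, and 2 were called higher and 4 lower, with a median log2 fold change of -0.38 (2 lower in the combined libraries). Over all tested genes 35.3% were called higher and 37.3% lower, and the counts of this and the following lists are to be read beside these shares. *Nectin4* rose 3.33-fold, from 10.8 ± 0.64 to 36.2 ± 2.2 (adjusted p = 8.48e-08, limma), and *Nectin1* rose 1.73-fold, from 42.5 ± 1.6 to 73.9 ± 9.0 (adjusted p = 3.37e-05, limma). *Nectin2* fell from 81.9 ± 4.2 to 55.2 ± 1.9 (adjusted p = 8.02e-06, limma). *Nectin3* was at 2.06, 2.28 and 2.36 in the KSFM-Ca2+ and 0.106, 0.0998 and 0.106 in the DKSFM libraries, which is the rounding step, so that its log2 fold change of -3.51 depends on the pseudocount. Afadin (*Afdn*, named after its value was seen) fell by 19.4% (log2 fold change -0.31, adjusted p = 1.54e-05, limma). *Pvr*, a nectin-like receptor named after its value was seen, fell by 26.6% (adjusted p = 0.00288, limma), a call lost without KSFM-Ca2+ replicate 2 (0.0141) or 3 (0.0132), without DKSFM replicate 2 (0.0143) or 3 (0.0131), and in the combined libraries (0.0112). The nectins thus divided, with *Nectin1* and *Nectin4* higher beside a nearly level *Cdh1*.

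Among the 16 junctional actin partners 7 were called higher, 7 lower and 2 not called, with a median of 0.06. The members that fell included non-muscle myosin IIB, *Myh10*, at 18.6, 18.5 and 19.1 in the KSFM-Ca2+ and 1.90, 1.5 and 2.01 in the DKSFM libraries (log2 change of -3.32, adjusted p = 4.96e-08, limma). *Actn1*, alpha-actinin 1, fell by 59.4% (adjusted p = 1.27e-07, limma), and *Actb*, beta-actin, fell by 50.3%, from 3246 ± 288 to 1614 ± 146 (adjusted p = 6.09e-06, limma). In the other direction *Limd1*, a LIM protein recruited to junctions under tension, rose 1.70-fold from 15.5 ± 0.14 to 26.4 ± 0.43 (adjusted p = 8.03e-07, limma). *Diaph1*, a formin, overlapped between the lines (130 ± 2.6 and 137 ± 4.7) and was called only with quantile normalization (adjusted p = 0.0050, limma).

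Of 10 genes of cadherin trafficking and turnover, 5 were called higher, 2 lower and 3 not called, with a median of 0.15 (3 higher and 1 lower in the combined libraries). *Camsap3*, which holds microtubule minus ends and is tethered to p120-catenin at the junction through *Plekha7*, stood at 76.5, 77.1 and 69.6 in the KSFM-Ca2+ and 458, 433 and 441 in the DKSFM libraries. This 5.96-fold rise (adjusted p = 1.86e-09, limma) exceeded that of any of the 10 cadherin and catenin genes, and *Plekha7* itself, also named after its value was seen, fell by 13.1% (adjusted p = 0.00114, limma, and 0.0218 in the combined libraries alone). *Adam10*, the protease that sheds the E-cadherin ectodomain, rose 1.56-fold (adjusted p = 1.29e-06, limma). *Pip5k1c*, a lipid kinase that binds E-cadherin and assists its sorting, rose 1.47-fold (adjusted p = 6.01e-06, limma), and *Rab11a*, of the recycling endosome that carries E-cadherin to the surface, fell by 34.2% (adjusted p = 2.58e-06, limma). *Numb* overlapped between the lines (65.6 ± 1.9 and 68.4 ± 2.2).

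The destruction complex sets the stability of free beta-catenin protein, and its list here also holds *Ctnnbip1*, which is not part of the complex. Of the 9 genes listed, 4 were called higher, 2 lower and 3 not called, with a median of 0.14 (2 higher with quantile normalization). *Apc*, the scaffold of the complex, fell by 24.8% (adjusted p = 0.000112, limma). *Ctnnbip1*, an inhibitor of the binding of beta-catenin to TCF factors, rose 1.43-fold (adjusted p = 1.81e-05, limma). *Amer1* rose 1.40-fold (adjusted p = 0.00140, limma, but 0.0107 with quantile normalization and 0.0125 in the combined libraries). The Wnt target *Axin2* was low, at 0.229, 0.298 and 0 in the KSFM-Ca2+ and at 0.741, 0.798 and 0.742 in the DKSFM libraries, and its call (adjusted p = 0.00839, limma) was lost in 7 of the 15 refits that tested it, while the filter in every library removed it. The 7 were quantile normalization (0.0276), no filter (0.0107), no intensity trend (0.0188), and the fits without KSFM-Ca2+ replicate 1 (0.0121) or without DKSFM replicate 1 (0.0272), 2 (0.0334) or 3 (0.0268). *Axin1* and *Btrc* overlapped between the lines. The level of the *Ctnnb1* transcript does not give the amount of its protein, which these files do not measure.

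Among the 7 repressors of *Cdh1*, 3 were called higher, 2 lower and 2 were not tested, with a median of 0.53 over those tested (1 lower with the filter in every library and in the combined libraries). *Snai2* rose 2.05-fold, from 68.7, 66.6 and 63.9 in the KSFM-Ca2+ libraries to 141, 137 and 130.0 in the DKSFM libraries (adjusted p = 1.25e-07, limma). *Zeb2* rose from 0.830 ± 0.40 to 6.15 ± 0.30 (adjusted p = 1.55e-05, limma). *Twist1* fell by 30.9% (adjusted p = 9.28e-05, limma). *Twist2* went from 7.62, 7.34 and 7.08 to 0.106, 0 and 0, so no fold is given. *Snai1* and *Zeb1* were at or within a few steps of 0. *Tcf3*, the most abundant of the list, rose from 277 ± 8.3 to 401 ± 16 (adjusted p = 3.06e-06, limma). It was named after its value was seen and was not followed through the alternatives. Thus *Tcf3* and *Snai2*, the repressors with the highest coverage, both rose, while *Twist1* and *Twist2*, which fell, had lower coverage. *Cdh1* differed by -8.92% between the lines, a call that did not hold throughout. Whether these genes have a part in that value was not tested.

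The epithelial regulators followed a narrower range, with 3 of 5 called higher, 1 lower and 1 not called (median 0.17). *Ovol1* rose 1.73-fold, the splicing factors *Esrp2* and *Esrp1* rose 1.72-fold and 1.12-fold, and *Grhl2* fell by 11.7% (adjusted p of 0.000288, 1.61e-06, 0.000677 and 0.00330 in this order, limma). The call of *Grhl2* was lost without KSFM-Ca2+ replicate 1 (0.01005) or 2 (0.0157), without DKSFM replicate 1 (0.0134) or 2 (0.0103), and in the combined libraries alone (0.0453).

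**Figure D5:**
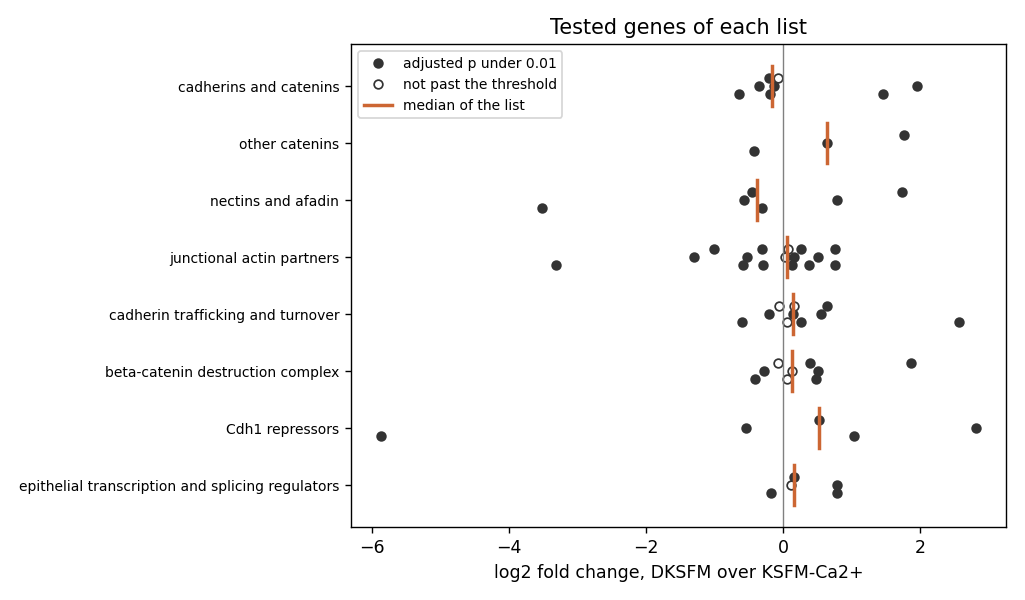
Log2 fold change, DKSFM over KSFM-Ca2+ (horizontal axis), of every tested gene in each list (rows), with filled points for adjusted p under 0.01, open points for genes not past it and a bar at the median. In the top row, of the 8 tested genes, the points lie between -0.64 and -0.07 apart from *Cdh13* and *Arvcf*, and the points farthest left are *Twist2*, *Nectin3* and *Myh10*.

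The genes whose pattern over the 6 libraries was closest were found by the root mean square difference of log2 values, each centred on its gene, among 9092 other genes whose mean in the line with more coverage was 10 or above. For *Cdh1* they were *R3hdm1* (0.0101), *Scrib* (0.0107) and *Rela* (0.0122). For *Arvcf* they were *Dynap* (0.0285), *Osmr* (0.0385) and *Anxa8* (0.0467), and for *Ctnna1* they were *Afg3l2* (0.0103), *Arpc5* (0.0140) and *Nol12* (0.0167). With 6 libraries in 2 groups such likeness mostly reflects a fold change of the same size.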

How the data were processed

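The authors deposited a signal for each gene and library, the mean read coverage per base, written to 1 decimal and not scaled to library size. Alignment was by STAR to mm10 with RefSeq annotation, quantification by Salmon, and how coverage was computed is not given in the sources used here. Groups and replicate numbers came from the labels. Coverage is not a count, so no count model was used. Libraries were scaled by trimmed means of M values without weights (trims of 30% and 5%), and limma 3.58.1 in R 4.3.3 was fitted with an intensity trend and no covariate to log2(normalized coverage + 0.1), for genes with at least 0.5 in at least 3 libraries, after a check on simulated data. Ratios were tested with SciPy 1.17.1 in Python 3.11.15, and figures were drawn with matplotlib 3.10.9. Gene positions came from RefSeq on GRCm38.p6, matched for 24412 genes by symbol and 474 by synonym, while 96 were unmatched. Besides the 10 genes, the rule named in each list up to 4 called genes with the largest absolute change and any gene with a mean of at least 10 that overlapped between lines. *Actg1*, *Lima1*, *Afdn*, *Plekha7*, *Pvr*, *Shroom3*, *Actn4*, *Tcf3*, *Celsr1*, *Pcdh7*, *Fat1*, *Fat2* and *Clstn1* were named after their values were seen. A marker list and an overlap between genes are not reported here. The genes and lists were chosen with earlier results of these data known. Alternatives were other scalings, filters, pseudocounts and variance models, a replicate block, a test against a 2-fold change, a threshold of 0.05, each library left out in turn, the 4 libraries whose deposited names carry the word combined (KSFM-Ca2+ replicate 3 and all DKSFM replicates), and wider or narrower windows.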

Additional observations from a re-analysis of the deposited data

How the results depend on the processing

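No alternative reversed the direction of any of the 8 tested cadherin and catenin genes. Of the 61 other genes followed through the alternatives 2 reversed, neither of them called: *Cdh24* in the combined libraries (log2 fold change 0.12), and *Isl1* with quantile normalization (-0.26) and without KSFM-Ca2+ replicate 3 (-0.10, in a range from -0.10 to 0.41 when each library was left out). Calls for *Arvcf*, *Cdh13*, *Ctnna1*, *Ctnnb1* and *Vcl* held in all 16 refits other than the test against a 2-fold change, and *Cdh3* was below the threshold of 0.01 in none. A looser threshold of 0.05 reuses the main fit and cannot lose a call, so it is not among the 16. *Axin2*, *Cdhr1*, *Isl1*, *Nectin3* and *Twist2* were not tested with the filter in every library, nor the last 2 in the combined libraries. The number called lower was 3 in place of 5 without the intensity trend and in the 4 combined libraries, where the lone KSFM-Ca2+ library is assumed to vary like the DKSFM libraries. It ranged from 3 to 5 when each library was left out. Tested against a 2-fold change with limma's treat, 0 were called lower, and *Arvcf* and *Cdh13* were called higher. Among all genes treat called 1057 higher and 787 lower in place of 4375 and 4629 (1629 and 1316 with a 2-fold change), and a filter of 0.5 in every library left 1025 genes 2-fold higher in place of 1629. The cause of these shifts is the stricter null or the smaller set of genes. Deviations of same-numbered libraries correlated at -0.01, 0.02 and -0.01, so the values showed no sign of pairing by replicate number. With 3 libraries in each line this cannot exclude a shared culture or batch. With the replicate block 4251 genes were called higher and 4492 lower, and the calls of the 10 genes stood at 2 higher and 5 lower. Ratios moved by less than the spread between replicates when each library was left out. Leaving out 1 of 3 libraries cannot move a mean by more than that spread, so this does not show that the ratios are stable. Medians of chromosome neighbours moved more within 5 Mb for *Cdh2* (0.0408 in place of -0.31), *Cdh13* (-0.44), *Ctnna1* (-0.0903), *Ctnnb1* (0.47) and *Ctnnd1* (-0.32), and within 20 Mb for *Ctnna1* (-0.26), *Ctnnb1* (0.16), *Ctnnd1* (0.0332) and *Vcl* (-0.12). The cause was not tested. An alternative with a count model was not run because the values are not counts. The rounding step of 0.1 limits *Cdh2*, *Cdh11*, *Nectin3*, *Twist2* and *Axin2*.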

Other observations

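Cadherin repeats also occur in proteins that do not bind catenins through a classical tail, such as the giant Fat and Dachsous cadherins, the planar polarity receptors of the Celsr family, calsyntenins and protocadherins. These 27 genes, without the clustered protocadherins whose transcripts share exons, were listed after the data were examined. Of them, 9 were tested, 4 called higher and 5 lower (35.3% and 37.3% over all tested genes), and 12 were listed at 0 in every library. *Celsr2* stood at 10.1, 8.53 and 7.68 in the KSFM-Ca2+ and 34.5, 32.4 and 35.8 in the DKSFM libraries, a 3.90-fold rise (adjusted p = 3.65e-07, limma). *Celsr1* went the other way, from 8.86 ± 0.59 to 5.41 ± 0.36 (adjusted p = 8.32e-05, limma). The planar polarity receptors thus moved in opposite directions, and *Celsr2* changed by about as much as *Arvcf*.

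*Pcdh1* rose 2.29-fold (15.4 ± 1.8 to 35.1 ± 2.0) and *Pcdh19* rose 3.80-fold (1.98 ± 0.097 to 7.83 ± 0.24), while *Pcdh7* fell by 30.0%, *Fat1* fell by 35.3%, *Fat2* fell by 29.8% and *Clstn1* fell by 12.9%. Each of these passed an adjusted p of 0.01 in limma, though *Clstn1* did not with quantile normalization (0.0104) or in the combined libraries (0.0364). *Cdhr1* was listed at 0 in every KSFM-Ca2+ library and stood at 2.86, 3.39 and 3.39 in the DKSFM libraries, so no fold is given.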
